A study of Arabidopsis thaliana with 12 samples.

Results

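The 3 nuclear genes of Arabidopsis thaliana described here were measured in 12 samples: CHL (AT3G47860), SRX (AT1G31170) and the aldo-keto reductase gene AT1G04420. They were taken as the features of the array whose annotation names exactly 1 gene, that gene being 1 of these 3. Each of the 3 genes has 1 such feature, so the members are 3 of 692 single-gene features and 3 of 3439 features in all. The genes were chosen with their values in the contrast of the 2 groups known. Their levels and group differences are therefore a description, and no test of that contrast is given for them.

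The array measured RNA in 6 samples of each group, and all 12 samples are of the ecotype Wassilevskija. In the first group wild type roots stood for 48 h on MS medium with 100 mM glucose. In the other the plants were the mutant kn09, which the labels call hypersensitive to proline and blocked in the mitochondrial breakdown of proline, and the MS medium held 100 mM proline for 48 h. No group of kn09 on glucose or of wild type on proline was analysed here, so genotype and medium cannot be told apart. The labels name neither the mutated gene, nor the age of the plants, nor whether each sample had its own plants, so the p-values below measure a spread that may be technical. In bulk RNA, fewer cells of a type and less RNA per cell cannot be told apart.

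CHL encodes the plastid lipocalin of the thylakoid lumen. Lipocalins are small barrel-shaped proteins that bind lipids or other hydrophobic molecules, and CHL is known for protecting thylakoid lipids against peroxidation and for a slow, sustained form of light-energy dissipation in the antenna. SRX encodes sulfiredoxin, which uses ATP to restore 2-Cys peroxiredoxins that hydrogen peroxide has overoxidised; in plants it is found in plastids and mitochondria. AT1G04420 belongs to the aldo-keto reductases, a superfamily that reduces aldehydes and ketones with NADPH. The files hold RNA levels only, so the plastid location in these names was not checked here.

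The intensities are in the authors' units, on a scale from 0 to a ceiling of about 100, and the sample medians lay between 0.137 and 0.224. The wild type samples held 175 to 265 features listed at 0 and the kn09 samples 317 to 475. Wild type samples 1 and 2 stood apart from the rest of their group. Their mean rank correlation over all features was 0.798 with wild type samples 3 to 6 and 0.795 with the kn09 samples, while wild type samples 3 to 6 reached 0.736 with the kn09 samples. Samples 1 and 2, 3 and 4, and 5 and 6 of wild type were closest to each other, with rank correlations of 0.896 to 0.944 against 0.782 to 0.874 for the other wild type combinations. In kn09 the same pairs had 0.838 to 0.918 against 0.816 to 0.870.

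CHL was measured above 0 in all 6 wild type samples and in 3 of the 6 kn09 samples. In wild type samples 1 to 6 its intensities were 0.0740, 0.103, 0.232, 0.182, 0.152 and 0.156, with a mean of 0.150 ± 0.0560 (SD, n = 6). In kn09 it was listed at 0 in samples 1, 2 and 4, and stood at 0.00858 in sample 3, 0.0452 in sample 5 and 0.119 in sample 6. The median was 0.154 in wild type and 0.00429 in kn09. The groups overlapped, because kn09 sample 6 exceeded wild type samples 1 and 2; the other 5 kn09 values lay below all wild type values.

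SRX had a wide spread within both groups. Its wild type intensities were 0.0198, 0.0180, 0.150, 0.156, 0.0580 and 0.0779 in samples 1 to 6, with a mean of 0.0799 ± 0.0609 (SD, n = 6). In kn09 it was listed at 0 in the same samples as CHL, 1, 2 and 4, and stood at 0.0615 in sample 3, 0.0209 in sample 5 and 0.0342 in sample 6. The median was 0.0680 in wild type and 0.0104 in kn09. The overlap was wide: 3 of the 6 kn09 values were above wild type samples 1 and 2, and kn09 sample 3 was also above wild type sample 5.

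For AT1G04420, 5 of the 6 kn09 values and 0 of the 6 wild type values were 0. Its wild type intensities in samples 1 to 6 were 0.0768, 0.0652, 0.169, 0.246, 0.118 and 0.127, with a mean of 0.134 ± 0.0664 (SD, n = 6). The single kn09 value above 0 was 0.101 in sample 2, higher than wild type samples 1 and 2 and lower than wild type samples 3 to 6. The groups thus overlapped through kn09 sample 2 alone.

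**Figure D1:**
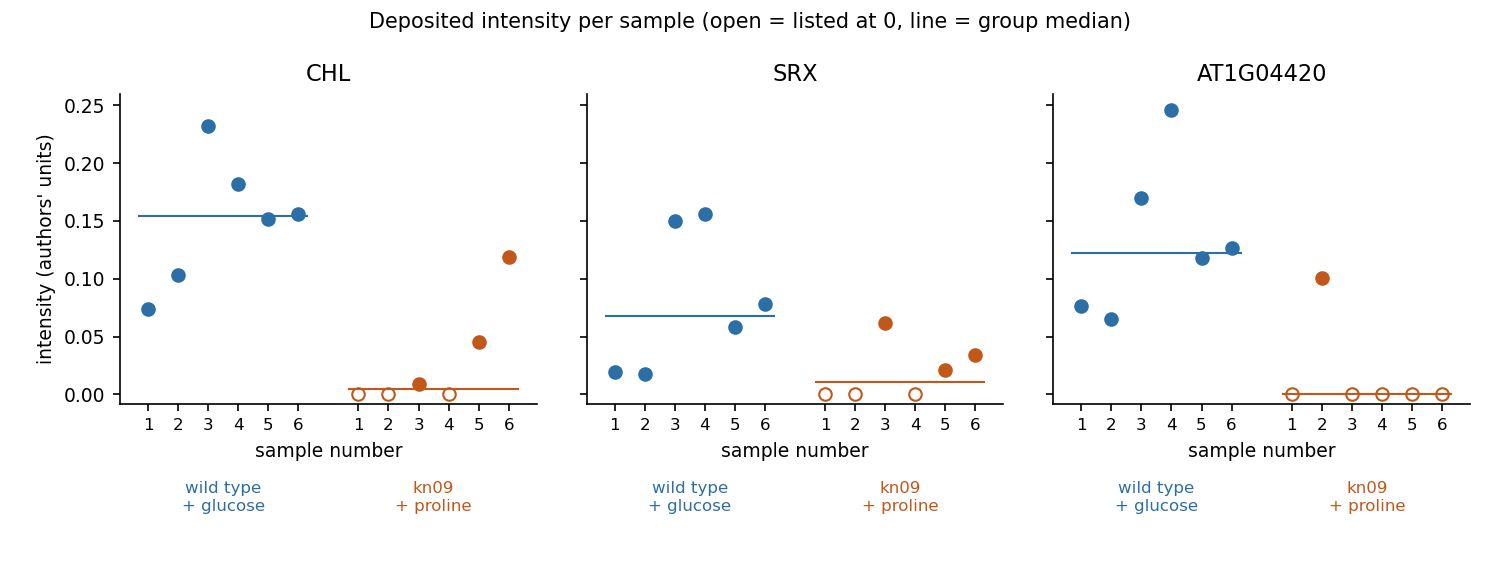
Deposited intensity (authors' units) of CHL, SRX and AT1G04420 in samples 1 to 6 of wild type on glucose (blue) and of kn09 on proline (orange), with open circles for values listed at 0 and lines at the group medians. All 6 wild type values of each gene are above 0, and 3, 3 and 5 of the 6 kn09 values are at 0, but in each panel at least 1 kn09 value lies above wild type samples 1 and 2.

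All 3 genes had 0 zeros in wild type and at least 3 in kn09. Over the whole array 121 of 3439 features, 3.52%, had that pattern, and 8 features, 0.233%, had the reverse. The pattern with at least 5 zeros in kn09, which AT1G04420 has, occurred in 10 features, 0.291%. Since the genes were chosen by this contrast, nothing is read from these shares.

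The zeros fell on the same samples in part. The 3 genes were all listed at 0 in kn09 samples 1 and 4, CHL and SRX together in sample 2, and AT1G04420 without the other 2 in samples 3, 5 and 6. Of the 9 combinations of gene and kn09 sample pair (1 and 2, 3 and 4, 5 and 6), 4 had both values at 0, 3 had a 0 beside a positive value and 2 had both values above 0. On the whole array 545 features were at 0 in only 1 of kn09 samples 1 and 2 and 199 in both, for kn09 samples 3 and 4 these numbers were 517 and 173, and for samples 5 and 6 they were 338 and 153. In the wild type pairs 167 to 228 features were at 0 in only 1 sample of a pair and 92 to 156 in both.

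The features lie where zeros are frequent. By mean intensity over the 12 samples, 12.2% of all features were as dim as SRX or dimmer, 21.2% for AT1G04420 and 25.4% for CHL. Brightness here describes a feature's signal and not the RNA level of 1 gene against another. With the features split by brightness into 4 classes of equal size, SRX and AT1G04420 fell in the dimmest class and CHL at the lower edge of the next. The mean that sets the class includes the kn09 zeros, which lower it, so the class is not independent of them. The wild type means of CHL and AT1G04420, 0.150 and 0.134, lay above the upper edge of the dimmest class, 0.0879. That of SRX, 0.0799, lay below it. The edge comes from means over all 12 samples, so it does not class the 3 genes by wild type intensity. In the dimmest class 22.2% of wild type values and 37.9% of kn09 values were 0. In the second class the shares were 2.52% and 8.70%, and in the third 0.679% and 0.873%. The part that this general rise of zeros in kn09 has in the values of the 3 genes was not tested.

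**Figure D2:**
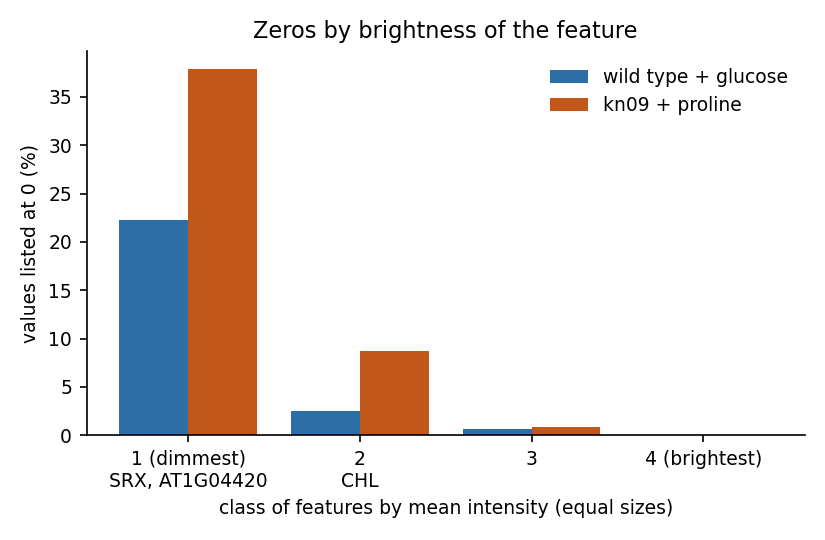
Percentage of values listed at 0 in each of 4 classes of the 3439 features, formed by mean intensity over all 12 samples, in wild type on glucose (blue) and kn09 on proline (orange). Zeros are concentrated in the dimmest class, at 22.2% and 37.9%, where the SRX and AT1G04420 features lie. The mean that sets the class includes the zeros themselves.

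After quantile normalization and a common floor for the zeros, the log2 difference of kn09 minus wild type was -3.32 ± 0.96 (SE) for CHL, -1.99 ± 1.09 for SRX and -4.23 ± 0.92 for AT1G04420 (n = 6 each). These SEs take the 6 samples of a group as independent. On means of the sample pairs the differences were the same and the SEs were 1.22, 1.31 and 0.92. The median of all features on this scale was -0.08. These sizes rest on the value given to a zero, as 3 of the 12 values of CHL, 3 of SRX and 5 of AT1G04420 are at the floor. With a pseudocount of 0.1 in place of the floor, the log2 differences were -0.88 for CHL, -0.45 for SRX and -0.91 for AT1G04420. With zeros taken as missing they were -1.88 ± 0.75 (SE) for CHL, -0.57 ± 0.90 for SRX and -0.14 for AT1G04420, the last from 1 kn09 value. The sign was negative in all 20 alternatives run for each gene. Most of these left out 1 sample and treated zeros as in the main fit, and for SRX with zeros missing the difference was smaller than its SE. The order of the 3 genes was not kept: AT1G04420 had the largest difference with the floor and the smallest with zeros missing.

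**Figure D3:**
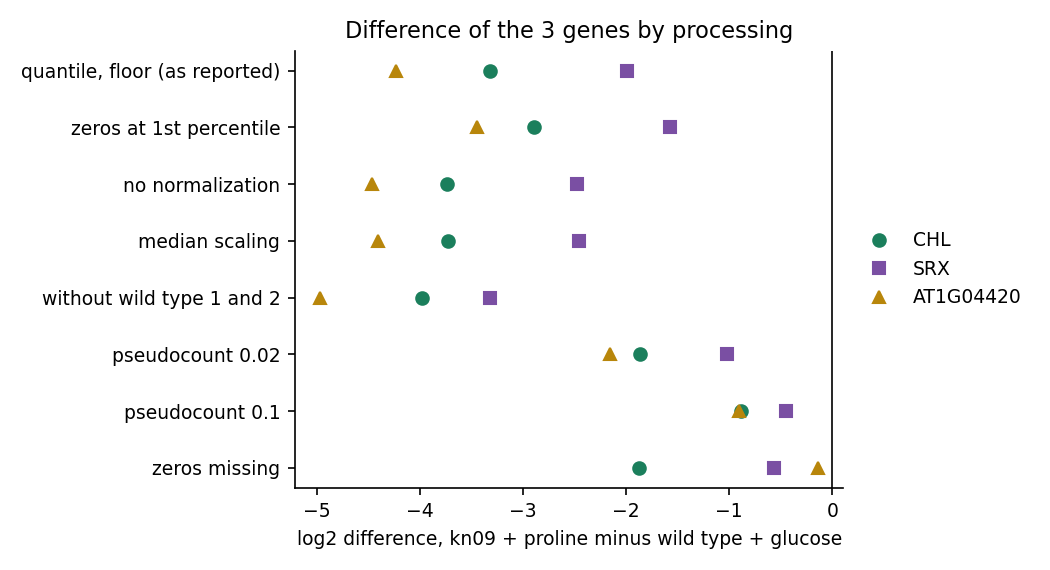
Log2 difference of kn09 on proline minus wild type on glucose for CHL (circles), SRX (squares) and AT1G04420 (triangles) under 8 ways of processing. All points lie below 0, and AT1G04420 moves from -4.23 with zeros at a floor to -0.14 with zeros missing.

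The wild type values of the 3 genes varied in a shared way. In each gene samples 1 and 2 were the lowest of the 6 and samples 3 and 4 the highest, with samples 5 and 6 between. Of the 2865 features with no zero in wild type, 10.8% had that full order, 22.2% had samples 1 and 2 lowest and 30.7% had samples 3 and 4 highest. After quantile normalization samples 1 and 2 were still the lowest for all 3 genes, as they were for 29% of these features. Samples 3 and 4 were no longer both the highest for CHL and AT1G04420. CHL had normalized intensities of 0.190 and 0.149 in samples 3 and 4 and of 0.201 and 0.204 in samples 5 and 6. For AT1G04420 sample 4 was still the highest, at 0.205. Sample 3 stood at 0.131, below samples 5 and 6 at 0.160 and 0.168.

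Without wild type samples 1 and 2 the groups separated for CHL and AT1G04420, whose 6 kn09 values all lay below the remaining 4 wild type values. This held for 552 features, 16.1% of the array, against 299 features, 8.69%, with all 12 samples. For SRX, kn09 sample 3 still stood above wild type sample 5 by deposited intensity, at 0.0615 against 0.0580. After normalization it lay below, at 0.0743 against 0.0767. The log2 differences without these samples were -3.98 for CHL, -3.32 for SRX and -4.97 for AT1G04420, so that of SRX grew by more than 1.5 times. That choice was made with the values known.

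Over all 12 samples CHL and SRX had the highest Spearman rank correlation among the 3 genes, 0.837, against 0.701 for CHL with AT1G04420 and 0.628 for SRX with AT1G04420. These values share the group contrast and the zeros, and are given as descriptions over 12 points. Within the 6 wild type samples, which hold no zeros of these genes, the order after quantile normalization was the opposite. The values were 0.429 for CHL with SRX, 0.6 for CHL with AT1G04420 and 0.829 for SRX with AT1G04420. By deposited intensity SRX and AT1G04420 ranked the 6 wild type samples identically, so CHL was equally like both. Whether CHL was closer to SRX or to AT1G04420 within wild type thus rests on the normalization. Other features were more like each of the 3 genes. Among the 691 other single-gene features, SRX ranked 19 in likeness to CHL, and AT1G04420 ranked 84 for CHL and 94 for SRX.

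The single-gene features most like CHL were the one annotated DAL1, with a Spearman correlation of 0.930, AT3G09050 with 0.923 and AT1G65090 with 0.916. For SRX they were AT4G27700 with 0.944, AT1G78790 with 0.914 and AT2G30320 with 0.907. For AT1G04420 they were AT3G51500 and AT4G16410 with 0.935 each and AT4G24090 with 0.914. With the group means taken off, the correlations of these 9 lay between 0.566 and 0.831. Their features were brighter than those of the 3 genes and, except for 1 kn09 value of AT1G78790, had no zeros. AT4G27700, the nearest to SRX, averaged 0.865 ± 0.311 (SD) over the 6 wild type samples and 0.628 ± 0.147 over the 6 kn09 samples. For DAL1 these averages were 0.311 ± 0.0832 and 0.0602 ± 0.0419.

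The surrounding antioxidant, photoprotective and carbonyl-reducing genes were thinly covered. Of 141 loci on 5 lists, 6 had a single-gene feature; 1 rose, 2 fell and 3 did not pass an adjusted p of 0.05 in limma. Over all features 27.7% passed, 14.1% higher and 13.6% lower. The median log2 difference of the 6 was -0.62. None of the 18 listed superoxide dismutases, catalases and ascorbate peroxidases had such a feature, nor did the 2-Cys peroxiredoxins on which sulfiredoxin acts.

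Among the thiol redox genes, 3 of 51 were measured. AT2G04700, the catalytic subunit of ferredoxin-thioredoxin reductase, which passes electrons from ferredoxin to plastid thioredoxins, had a lowest, median and highest intensity of 0.496, 0.825 and 1.12 in wild type and of 0.366, 0.484 and 0.544 in kn09. Wild type samples 1 and 2 overlapped with kn09 and samples 3 to 6 did not. It fell by 0.74 ± 0.23 (SE) on the log2 scale (limma, adjusted p = 0.0307), and on means of the sample pairs the adjusted p was 0.243. The call also ended with the pairs as a random block, at 0.0686, with median scaling, at 0.113, and without any 1 of wild type samples 3 to 6 or kn09 samples 2 to 5, with adjusted p up to 0.0656.

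NTRC (AT2G41680), an NADPH-dependent thioredoxin reductase of the plastid that reduces 2-Cys peroxiredoxins, averaged 0.230 ± 0.109 (SD) over the 6 wild type samples and 0.358 ± 0.203 over the 6 kn09 samples. Its log2 difference was 0.56 ± 0.55 (SE), with a limma adjusted p of 0.489. AT3G52960, the plastid peroxiredoxin PrxIIE, stood at 0.886 and 0.845 in wild type samples 1 and 2 and between 0.181 and 0.289 in the other wild type samples. The kn09 samples ranged from 0.173 to 0.349 and overlapped those 4. Wild type samples 1 and 2, high for AT3G52960, are the ones in which CHL, SRX and AT1G04420 were lowest among wild type. The log2 difference of AT3G52960 was -0.54 ± 0.42 (SE; limma, adjusted p = 0.377), and 0.12 without wild type samples 1 and 2.

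GLDH (AT3G47930), a mitochondrial dehydrogenase that completes the synthesis of ascorbate, was the 1 measured gene of 19 for ascorbate and glutathione. It ranged from 0.223 to 0.658 in wild type with a median of 0.513, and from 0.0745 to 0.270 in kn09 with a median of 0.108. The kn09 values overlapped with wild type through sample 4. It fell by 1.56 ± 0.41 (SE) on the log2 scale, with a limma adjusted p of 0.0138, or 0.152 on the pair means. GLDH is also the measured single-gene neighbour nearest to CHL, on chromosome 3 with 4 protein-coding genes between them in the TAIR10.1 gene table. The nearest such neighbours of SRX and AT1G04420 had log2 differences of 0.69 and -1.30. Neither passed (limma, adjusted p = 0.145 and 0.219).

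Of the 18 loci listed with the lipocalin, the other lipocalins, the xanthophyll cycle, tocopherol synthesis and photoprotective thylakoid proteins among them, the 1 measured was AT4G31530. It encodes ROQH1, which relaxes the sustained energy dissipation in which CHL acts. Its feature was among the brightest, with 44.7 to 70.8 in wild type and 79.9 to the ceiling in kn09, where 4 of 6 values stood at the ceiling. The groups did not overlap, as for 9.28% of features with all kn09 values above all wild type values. It rose by 0.46 ± 0.16 (SE) on the log2 scale (limma, adjusted p = 0.0445), a size limited by the ceiling. The call ended in 17 of 24 alternatives, among them the pair means, at 0.335, the random block, at 0.113, and leaving out any 1 sample other than wild type sample 2, at 0.0556 to 0.0894.

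AT2G27680, another aldo-keto reductase family gene and the 1 measured of 35 for carbonyl metabolism, averaged 0.416 ± 0.101 (SD) over the 6 wild type samples and 0.290 ± 0.158 over the 6 kn09 samples. Its log2 difference of -0.70 ± 0.42 (SE) did not pass (limma, adjusted p = 0.238). Unlike AT1G04420, it was above 0 in all 12 samples, with a lowest kn09 value of 0.0597 in sample 3.

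**Figure D4:**
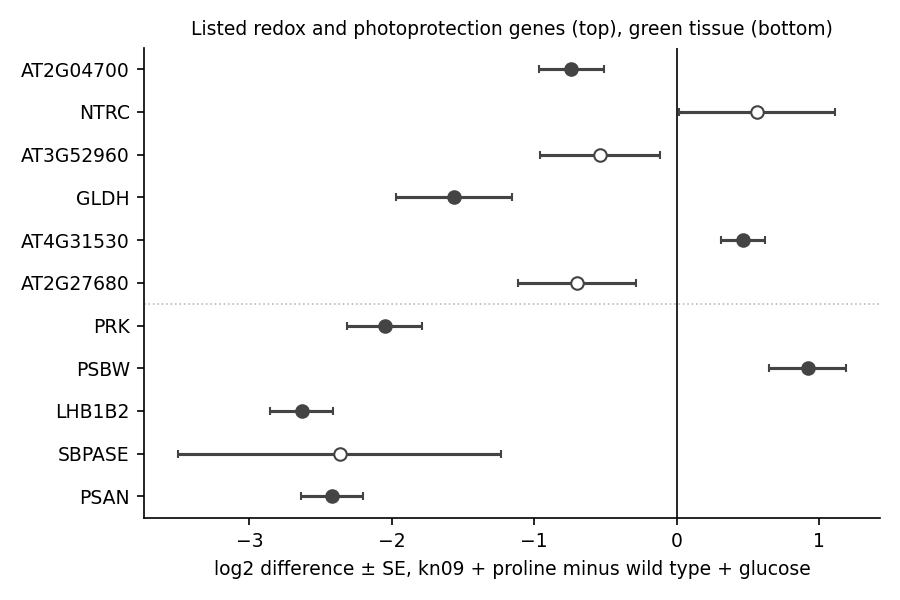
Log2 difference of kn09 on proline minus wild type on glucose, with its SE, for the 6 measured redox, photoprotection and carbonyl genes (above the dotted line) and the 5 measured green tissue genes (below); filled points passed in limma at an adjusted p of 0.05. Of the upper 6, AT2G04700 and GLDH were lower and AT4G31530 higher. Of the lower 5, PRK, LHB1B2 and PSAN were lower and PSBW higher. On means of the sample pairs only PRK, LHB1B2 and PSAN passed.

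Of 29 listed genes of green tissue 5 were measured; 3 fell, 1 rose and 1 did not pass, beside 13.6% of all features lower and 14.1% higher. PRK and SBPASE are enzymes of the Calvin cycle, LHB1B2 is an antenna protein of photosystem II and PSAN a subunit of photosystem I. PSBW is a photosystem II subunit that rose (limma, adjusted p = 0.0253, or 0.221 on the pair means). The summed intensity of all 5 was 69.5 to 83.9 in the wild type samples and 55.7 to 105.8 in the kn09 samples, so the groups overlapped. The highest of these is capped, because 1 kn09 value of PSBW stood at the ceiling. Without PSBW, left out with its values known, the sums were 32.5 to 51.5 in wild type and 5.81 to 8.94 in kn09. These 4-gene sums are mostly LHB1B2, with a wild type mean of 35.3. The wild type means of PSAN, PRK and SBPASE were 7.65, 1.34 and 0.230. SBPASE had 2 of its 6 kn09 values at 0, and the others of the 5 had none. Of 18 root markers 0 had a single-gene feature, so the root label could not be checked against them. Whether the share of green tissue has a part in the values of CHL, SRX and AT1G04420 was not tested.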

How the data were processed

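The deposited table holds 1 intensity per feature and sample, which the authors had scaled to a top of about 100, per the values; how they corrected, scaled and filtered the intensity values is not given in the sources used here. Groups and sample numbers came from the sample titles. Features were named through GEO's platform annotation, with current symbols looked up by Entrez identifier in a TAIR10.1 table; DAL1 had no current entry and keeps its old name.

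Intensities were quantile normalized, values at or below the highest normalized value of a listed 0 (0.00307) were set to it, and log2 was taken. The floor took 9.52% of values. The groups were compared two-sided with lmFit and eBayes (limma 3.58.1, R 4.3.3), and p-values were adjusted by Benjamini-Hochberg over all 3439 features. The fit was also run on simulated data. Those samples were drawn independently, so that run cannot speak to the likeness of the sample pairs, and nothing is read from it here. The members, the lists and the sample pairs were chosen with earlier results of these data known. Named genes are the members, list genes past the threshold (up to 4 a list, otherwise the 2 with the largest difference), and the 3 features most like each member; NTRC and AT3G52960 fell outside that rule, as did SBPASE, and were named after their values were seen. Alternatives were other floors, scalings, pseudocounts, filters, blocks and left-out samples. The number of samples limits the precision.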

Additional observations from a re-analysis of the deposited data

Results flagged for a closer look

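The intensity of AT1G04420 was 0.101 in kn09 sample 2 and 0 in the remaining 5 kn09 samples. It is listed because 1 sample stands apart from the others of its group. Any single positive value beside 5 zeros would be listed, so this is a description and no test. The other 27 sets of 6 values held no such sample, and for values that are not tied chance lists about 1 in 20.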

How the results depend on the processing

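The sign of the log2 difference of CHL, SRX and AT1G04420 was the same in the 20 alternatives run for each, most of which left out 1 sample. The size followed the value given to a zero. For AT1G04420 it was -0.14 with zeros missing, -0.91 with a pseudocount of 0.1 and -2.16 with a pseudocount of 0.02; for CHL it was -0.88 with a pseudocount of 0.1. Leaving out 1 sample at a time gave -3.87 to -2.84 for CHL, -2.72 to -1.58 for SRX and -5.09 to -3.95 for AT1G04420. Over the whole array 952 features passed, 485 higher and 467 lower, against 197 on means of the sample pairs, 80 higher and 117 lower. No normalization moved the median of all features to -0.34 and median scaling to -0.26. Of the 11 measured list genes 7 passed, against 3 on the pair means and 4 to 7 when 1 sample was left out; the 4 came without wild type sample 3, 5 or 6 or kn09 sample 3 or 4. With the replicate number as a block 816 features and 4 list genes passed. With the group means taken off, same-numbered samples of the 2 groups had low correlations of 0.0222 to 0.0981. Each wild type sample nevertheless correlated best with the kn09 sample of its own number, in 6 of 6 cases. What a shared number marks is not given in the labels, and the main fit used no block. AT3G52960 turned to 0.12 without wild type samples 1 and 2. Of the 9 features named as most alike, 4 were also among the 3 closest by Pearson correlation. Values near 0 limit what the 3 features can show.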
